A study of Mus musculus with 10 samples.

Results

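Transcripts of 34 genes of the cell cycle and of DNA replication were followed in tumour-associated macrophages, out of 36528 genes in the deposited tables. The genes were chosen by name and fall into 20 genes of G2 phase and mitosis and 14 genes of DNA replication and entry into S phase. All 34 were found by their Entrez identifiers, and all 34 passed the filter on low counts. The macrophages were purified from MC-38 tumours, which grow from a mouse colon carcinoma line, in C57Bl/6 mice. Of the 10 libraries, 5 came from mice given an antibody against MerTK, a receptor tyrosine kinase through which macrophages take up apoptotic cells, and 5 from mice given an antibody against gp120, an HIV envelope protein that served as the control target. RNA was taken 24 h after treatment. All 10 libraries share the strain, the tumour and the purification. The labels give neither the ages of the mice nor whether a library is 1 mouse or a pool, so each p-value here reflects library-to-library spread, which may be technical.

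A dividing cell copies its DNA once, in S phase, and separates the copies in mitosis. Before S phase, MCM helicase subunits are loaded on replication origins, and E2F factors switch on their genes together with those of the sliding clamp PCNA and of nucleotide synthesis. The genes of mitosis (cyclins A and B, the kinases Cdk1, Plk1 and Aurora, kinetochore and spindle proteins) come on later, under the MuvB complex with B-Myb and FoxM1, which acts largely through a promoter element called CHR. In tissues, some macrophages divide where they sit and others arise from blood monocytes, so such transcripts are read as signs of cycling cells.

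After anti-MerTK the 2 classes leaned in opposite directions by small amounts, and no member passed the test. Of the 20 mitosis genes, 19 had a negative log2 fold change (anti-MerTK over anti-gp120), with a median of -0.21. Of the 14 replication genes, 10 had a positive one, with a median of 0.19. Over all 13588 genes tested the median was -0.0059, with 51.0% of estimates negative and 49.0% positive. In edgeR's quasi-likelihood test with Benjamini-Hochberg adjustment over all genes, 0 of 20 and 0 of 14 members had an adjusted p under 0.05, where 438 of all genes did (3.22%; 1.85% higher and 1.38% lower). At an unadjusted p under 0.05 (20.9% of all genes) stood 4 mitosis genes, all lower (10.8% of all genes were lower at that level), and 5 replication genes, all higher (10.1% of all genes). With DESeq2 (8.48% of all genes called), Cenpf, Kif11 and Pcna passed, with adjusted p of 0.0417, 0.0382 and 0.0326, and with limma-voom (7.41% called) Pcna passed (adjusted p = 0.0452). Mcm2 passed in edgeR without anti-MerTK replicate 5 (adjusted p = 0.0349). A p that misses the threshold does not show that levels were equal. For none of the 34 members were the groups free of overlap, against 5.97% of all genes.

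**Figure D1:**
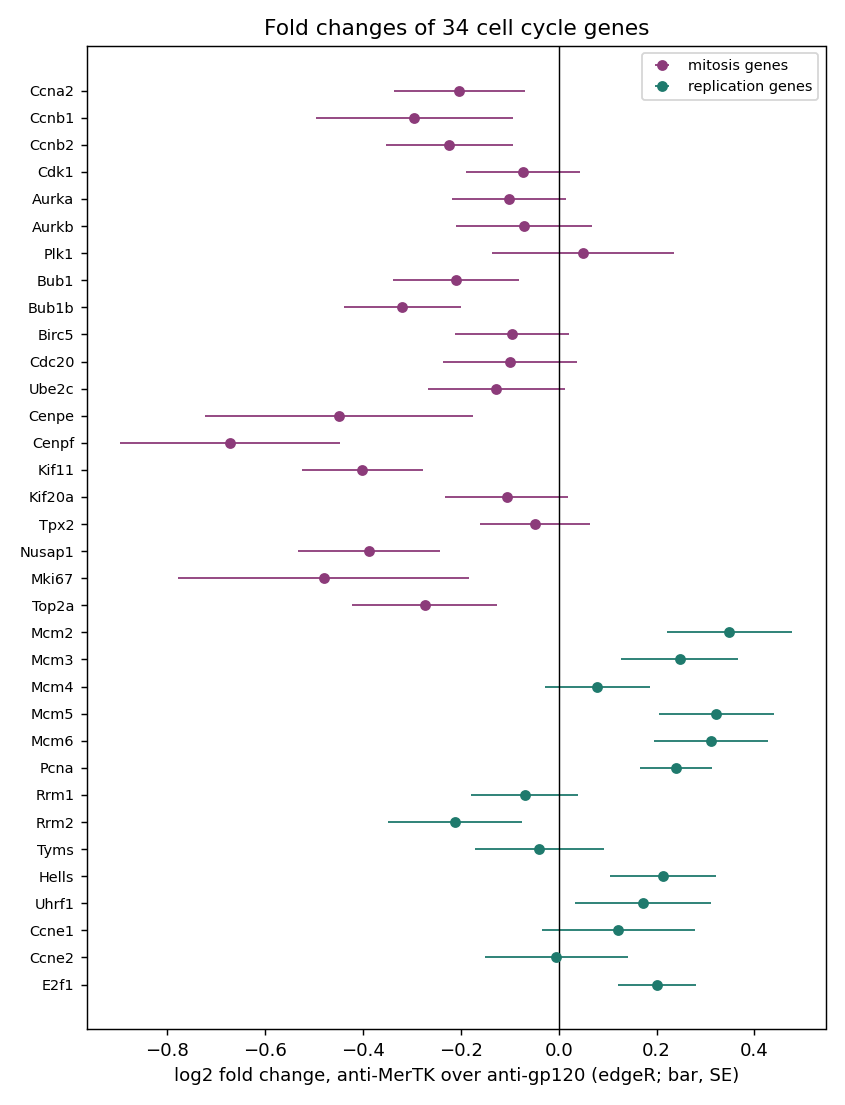
Log2 fold change (x axis, anti-MerTK over anti-gp120) of each of the 34 genes (y axis), with its approximate SE as a bar and 5 libraries per group. Of the mitosis genes, 19 of 20 lie left of 0, and of the replication genes, 10 of 14 lie right of it.

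The promoters are shown because the classes are known to be switched by different elements. RefSeq's promoter table for GRCm38.p6 gave windows of 250 bases before to 50 after the annotated start for 28 of the 34 genes, 16 of mitosis and 12 of replication. 3 motifs were searched on both strands: the CHR core TTTGAA, the CCAAT box CCAAT bound by the factor NF-Y, and the E2F site as TTCCCGC or TTGGCGC. The letters of the 3 motifs can overlap within a window. TTTGAA stood in 11 of 16 mitosis genes (68.8%) and in 1 of 12 replication genes (8.33%), Mcm2, against 20.2% of the 27025 genes with a window. E2F letters stood in 3 of 16 mitosis genes (18.8%), Ccnb1, Cdk1 and Mki67, in 6 of 12 replication genes and in 7.79% of all genes. CCAAT stood in 14 of 16 mitosis genes, 8 of 12 replication genes and 41.1% of all genes. A match describes the letters only.

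6 windows are shown, with all matches in capitals: those of the 2 mitosis genes and of the 4 replication genes of smallest p. Kif11 (chr19:37376132-37376431, plus strand) and Cenpf (chr1:189688037-189688336, minus strand) are mitosis genes. Pcna (chr2:132253131-132253430, minus strand) encodes the replication clamp, and Mcm5 (chr8:75109259-75109558, plus strand), Mcm2 (chr6:88898731-88899030, minus strand) and Mcm6 (chr1:128359656-128359955, minus strand) are helicase genes. Counting from 0 at the annotated start, the CHR letters of Kif11 begin at -19 on the opposite strand, as TTCAAA, its CCAAT letters at -45 (ATTGG), and the CHR letters of Cenpf begin at 2. The E2F letters begin at -164 and -149 in Mcm5 (GCGCCAA, opposite strand) and at -109 and -46 in Mcm6. The windows of Pcna and Mcm2 hold no E2F letters. Pcna has CCAAT letters at -87 (ATTGG), and Mcm2 has them at -175 (ATTGG) and CHR letters at -70.
Kif11: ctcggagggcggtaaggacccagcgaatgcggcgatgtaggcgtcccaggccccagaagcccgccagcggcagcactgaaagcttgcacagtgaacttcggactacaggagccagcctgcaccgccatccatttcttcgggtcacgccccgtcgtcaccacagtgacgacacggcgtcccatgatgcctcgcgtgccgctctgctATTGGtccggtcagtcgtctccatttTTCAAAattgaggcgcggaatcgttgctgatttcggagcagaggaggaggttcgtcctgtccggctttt
Cenpf: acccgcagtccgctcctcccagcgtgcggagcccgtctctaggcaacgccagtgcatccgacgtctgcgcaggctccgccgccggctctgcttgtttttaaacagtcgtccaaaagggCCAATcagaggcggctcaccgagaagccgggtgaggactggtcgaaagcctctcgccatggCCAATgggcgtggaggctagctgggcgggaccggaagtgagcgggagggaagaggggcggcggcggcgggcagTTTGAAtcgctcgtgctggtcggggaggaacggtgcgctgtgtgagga
Pcna: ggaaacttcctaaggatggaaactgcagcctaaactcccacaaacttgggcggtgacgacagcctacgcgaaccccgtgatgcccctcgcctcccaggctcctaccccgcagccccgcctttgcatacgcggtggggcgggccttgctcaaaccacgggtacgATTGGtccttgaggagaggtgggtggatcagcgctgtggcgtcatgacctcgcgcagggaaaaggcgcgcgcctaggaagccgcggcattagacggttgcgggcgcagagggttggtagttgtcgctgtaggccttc
Mcm5: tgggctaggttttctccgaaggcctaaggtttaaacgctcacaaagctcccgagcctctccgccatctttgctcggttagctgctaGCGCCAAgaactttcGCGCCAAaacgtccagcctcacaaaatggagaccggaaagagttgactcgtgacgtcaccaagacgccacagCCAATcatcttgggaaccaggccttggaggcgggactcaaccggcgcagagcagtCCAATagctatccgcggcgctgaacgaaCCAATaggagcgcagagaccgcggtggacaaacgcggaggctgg
Mcm2: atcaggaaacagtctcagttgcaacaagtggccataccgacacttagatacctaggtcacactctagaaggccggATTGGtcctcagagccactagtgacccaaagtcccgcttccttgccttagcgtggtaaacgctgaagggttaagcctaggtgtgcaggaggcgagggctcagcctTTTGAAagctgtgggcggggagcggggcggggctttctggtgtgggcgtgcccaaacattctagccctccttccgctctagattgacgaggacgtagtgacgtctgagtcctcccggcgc
Mcm6: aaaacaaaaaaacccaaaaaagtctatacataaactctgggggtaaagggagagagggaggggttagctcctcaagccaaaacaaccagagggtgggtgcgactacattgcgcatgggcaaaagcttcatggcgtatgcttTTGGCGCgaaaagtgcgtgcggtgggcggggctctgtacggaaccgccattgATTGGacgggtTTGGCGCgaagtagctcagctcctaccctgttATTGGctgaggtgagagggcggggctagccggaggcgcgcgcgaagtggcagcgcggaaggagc

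Levels are compared between genes on the authors' RPKM scale, reads per length and library size. The order of genes on it depends on the gene lengths the authors used, which need not be the transcript lengths given below. 3 helicase subunits were the most abundant members, with Mcm6 at 67.8 ± 8.35 RPKM after anti-MerTK and 54.5 ± 8.37 RPKM after anti-gp120 (SD, n = 5 each), Mcm3 at 57.4 ± 8.26 RPKM after anti-MerTK and 48.3 ± 6.93 RPKM after anti-gp120 and Mcm5 at 52.7 ± 7.36 RPKM after anti-MerTK and 42.1 ± 6.00 RPKM after anti-gp120. Ube2c, which loads ubiquitin for the anaphase promoting complex, led the mitosis genes at 33.04 ± 6.28 RPKM after anti-MerTK and 36.02 ± 5.70 RPKM after anti-gp120. The lowest were Cenpf, a kinetochore protein (0.384 RPKM over all 10 libraries), Cenpe, a kinetochore motor (0.823 RPKM), and Mki67, whose product Ki-67 coats mitotic chromosomes (1.45 RPKM). These 3 also have the longest transcripts of the 34, at 11130, 7910 and 10061 bases in GENCODE M21. Whether length bears on their level was not tested. Ccnb1, cyclin B1, was next at 1.76 RPKM, far under its relative Ccnb2, cyclin B2, at 26.1 RPKM. The counts hold uniquely aligned reads only, and whether this lowered the level of Ccnb1 was not tested. In RPKM, Mcm3 and Mcm5 differed by less than the SD of Mcm3 in either group, while Mcm6 exceeded Mcm5 by more than its SD in both. In CPM, scaled for library size but not for length, Mcm6 averaged 196 ± 24.2 after anti-MerTK and 158 ± 24.8 after anti-gp120. Mcm5 averaged 181 ± 25.3 CPM after anti-MerTK and 145 ± 21.1 CPM after anti-gp120. On that scale they differed by less than the SD of Mcm6 in either group. Within libraries, Mcm6 was above Mcm5 in all but anti-gp120 library 5 (135 against 138 CPM). Cdk1 (22.1 RPKM), the kinase of mitotic entry, and Top2a (23.1 RPKM), the topoisomerase that untangles chromosomes, differed by less than the SD of Cdk1 in either group. Each SD is the spread of a gene between libraries, not that of a difference between genes within a library.

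**Figure D2:**
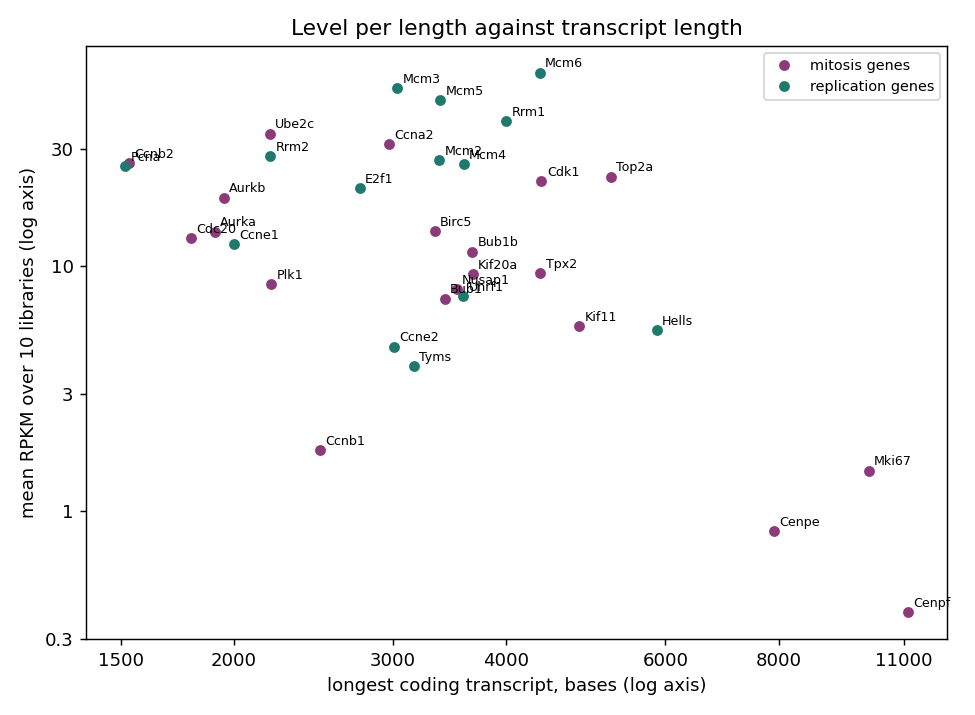
Mean RPKM over 10 libraries (y axis, log scale) against the length of the longest coding transcript in bases (x axis, log scale) for the 34 genes. Cenpf, Cenpe and Mki67 are at the lower right, with the longest transcripts and the lowest levels.

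Among the mitotic cyclins and their kinase, none passed the test and all 4 estimates were negative. CPM are counts scaled to a common library size after TMM normalization. Ccna2, cyclin A2, which acts in S phase and at mitotic entry, gave 101, 67.00, 74.02, 71.02 and 93.2 CPM after anti-MerTK and 108, 104, 96.4, 73.3 and 86.5 CPM after anti-gp120 (log2 fold change -0.20, SE 0.13). Anti-MerTK libraries 2 and 4 lay below every control library, and libraries 1, 3 and 5 lay within the control range. Ccnb2 ranged over 30.4 to 45.5 CPM after anti-MerTK and 34.01 to 48.3 CPM after anti-gp120 and had a log2 fold change of -0.22. Ccnb1 was near 3.64 CPM after anti-MerTK and 4.47 CPM after anti-gp120, on 86 to 218 reads a library. Its log2 fold change was -0.30 (SE 0.20). Cdk1 averaged 61.5 ± 8.69 CPM after anti-MerTK and 64.7 ± 9.69 CPM after anti-gp120 (SD, n = 5 each), and with a log2 fold change of -0.073 its group difference was under the SD of either group.

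The kinases of the spindle and its checkpoint showed no called change either. Bub1b, the checkpoint protein BubR1 that holds back anaphase until every kinetochore is attached, gave 45.3, 35.7, 34.5, 37.00 and 33.02 CPM in anti-MerTK libraries 1 to 5, against 53.2, 56.8, 41.6, 39.9 and 40.2 CPM in anti-gp120 libraries 1 to 5. All 5 anti-MerTK values lay below the control mean and 4 below the lowest control, while library 1 lay among the controls. Its log2 fold change was -0.32 (SE 0.12, unadjusted p = 0.0199, edgeR adjusted p = 0.153). Its relative Bub1, a checkpoint kinase, had a log2 fold change of -0.21 (SE 0.13, edgeR adjusted p = 0.375). Aurka, which matures the spindle poles, Aurkb, the kinase of the chromosomal passenger complex, and Birc5, its partner survivin, had log2 fold changes of -0.10, -0.071 and -0.096, each smaller than its SE of 0.12, 0.14 and 0.12. Plk1, a kinase acting from mitotic entry to cytokinesis, was the only mitosis gene with a positive estimate, 0.050 (SE 0.19). Without anti-MerTK replicate 1 that estimate was -0.078, without anti-gp120 replicate 3 -0.015 and without anti-gp120 replicate 4 -0.029. Plk1 ranged over 14.1 to 25.01 CPM after anti-MerTK and 13.9 to 25.1 CPM after anti-gp120, with library 1 the highest of each group.

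Cdc20, which activates the anaphase promoting complex, and Ube2c, its ubiquitin-conjugating partner, had log2 fold changes of -0.10 and -0.13 (SE 0.14 and 0.14). Cdc20 ranged over 18.5 to 28.7 CPM after anti-MerTK and 17.8 to 27.9 CPM after anti-gp120. Ube2c ranged over 24.8 to 37.6 CPM after anti-MerTK and 26.5 to 39.4 CPM after anti-gp120. For both, anti-MerTK library 1 and anti-gp120 library 1 were the highest of their groups and the ranges nearly coincided.

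Of the 4 spindle genes, all had negative estimates and Kif11 had the lowest p of the mitosis genes. Kif11, the kinesin that pushes the spindle poles apart (GRCm38 chromosome 19, 37376382 to 37421863), gave 29.5, 21.7, 20.7, 21.3 and 24.2 CPM in anti-MerTK libraries 1 to 5, against 36.7, 35.9, 28.1, 25.9 and 28.3 CPM in anti-gp120 libraries 1 to 5. Libraries 2 to 5 of the anti-MerTK group lay below every control, and library 1 lay between the controls. On average Kif11 stood at 23.5 ± 3.62 CPM after anti-MerTK and 31.00 ± 4.97 CPM after anti-gp120 (SD, n = 5 each), a log2 fold change of -0.40 (SE 0.12, unadjusted p = 0.00668, edgeR adjusted p = 0.0956). Nusap1, which bundles spindle microtubules, gave 24.5, 15.2, 16.8, 20.6 and 25.3 CPM in anti-MerTK libraries 1 to 5, against 31.97, 28.6, 26.5, 23.00 and 24.1 CPM in anti-gp120 libraries 1 to 5. Libraries 2, 3 and 4 were below every control and libraries 1 and 5 within the control range, for a log2 fold change of -0.39 (SE 0.15, unadjusted p = 0.0203, edgeR adjusted p = 0.154). Tpx2, which activates Aurora A on the spindle, and Kif20a, a kinesin of cytokinesis, had log2 fold changes of -0.049 and -0.11, under their SE of 0.11 and 0.12. Without anti-gp120 replicate 1 the estimate of Tpx2 was 0.024.

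The largest negative estimates belonged to the long, low transcripts. Cenpf gave 4.53, 2.47, 3.16, 4.31 and 2.62 CPM in anti-MerTK libraries 1 to 5, against 5.33, 8.11, 3.72, 4.84 and 5.27 CPM in anti-gp120 libraries 1 to 5, on 80 to 338 reads a library. Libraries 2, 3 and 5 of the anti-MerTK group lay below every control. The log2 fold change of Cenpf was -0.67 (SE 0.22, unadjusted p = 0.0109, edgeR adjusted p = 0.115). Cenpe ranged over 3.71 to 6.91 CPM after anti-MerTK and 3.57 to 11.7 CPM after anti-gp120, and its log2 fold change was -0.45 (SE 0.27). Mki67 gave 15.6, 11.8, 11.3, 15.9 and 6.63 CPM in anti-MerTK libraries 1 to 5, against 17.3, 26.9, 8.88, 19.2 and 13.3 CPM in anti-gp120 libraries 1 to 5, for a log2 fold change of -0.48 (SE 0.30, edgeR adjusted p = 0.383). Its control libraries spread widely, lowest in library 3 and highest in library 2, a range that contains all anti-MerTK values but that of library 5. Cenpf, Cenpe and Mki67 all peaked in anti-gp120 library 2. In anti-MerTK library 5 the median deviation from the gene mean, in log2 CPM, was -0.70 for these 3 genes, where it was 0.089 for all 20 mitosis genes. Control libraries showed such gaps too, at -0.62 for the 3 genes and -0.011 for all 20 in anti-gp120 library 3, and 0.46 and -0.17 in anti-gp120 library 4. Top2a gave 136, 101, 95.5, 105 and 108 CPM in anti-MerTK libraries 1 to 5, against 157, 170.5, 105, 119 and 109 CPM in anti-gp120 libraries 1 to 5. Its 2 highest libraries were controls 1 and 2, and the other control libraries lay among the anti-MerTK ones (log2 fold change -0.27, SE 0.15, edgeR adjusted p = 0.309).

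**Figure D3:**
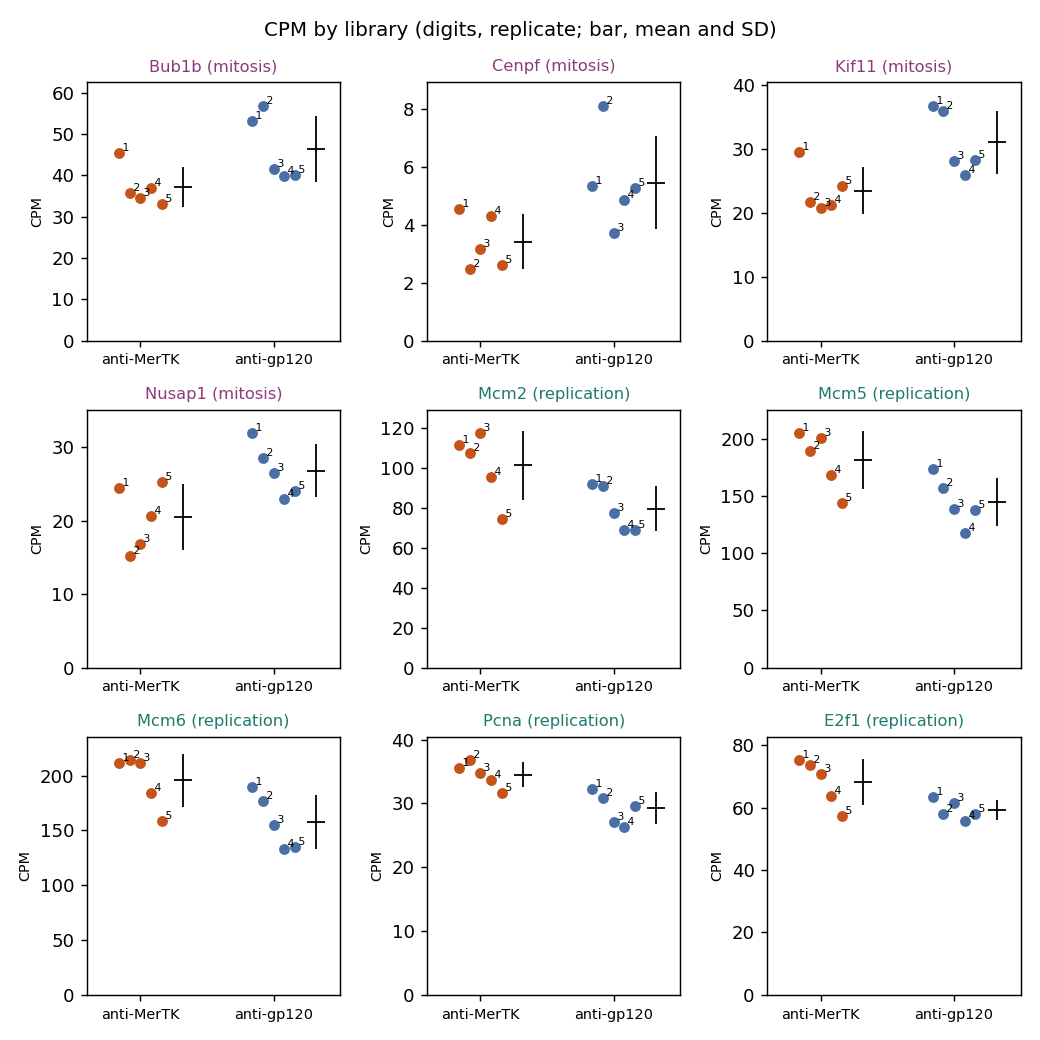
CPM in each library for the 9 members with an unadjusted p under 0.05 in edgeR, with anti-MerTK at the left of each panel and anti-gp120 at the right. Points are libraries numbered by replicate, bars show mean and SD (n = 5 each). The groups overlap in each panel, and anti-MerTK library 5 is the lowest of its group for each of the 5 replication genes.

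The helicase subunits had estimates of the opposite sign. All 5 listed MCM genes had positive estimates, with a median log2 fold change of 0.31. Mcm2 gave 112, 107, 117, 95.2 and 74.3 CPM in anti-MerTK libraries 1 to 5, against 91.8, 90.7, 77.2, 69.00 and 68.6 CPM in anti-gp120 libraries 1 to 5. Anti-MerTK libraries 1 to 4 lay above every control and library 5 among the lower controls. Its log2 fold change was 0.35 (SE 0.13, unadjusted p = 0.0184, edgeR adjusted p = 0.148), and 0.44 without anti-MerTK replicate 5. Mcm5 gave 205, 189, 200.1, 168 and 144 CPM in anti-MerTK libraries 1 to 5, against 173, 157, 139, 118 and 138 CPM in anti-gp120 libraries 1 to 5, with libraries 1 to 3 above every control. It averaged 181 ± 25.3 CPM after anti-MerTK and 145 ± 21.1 CPM after anti-gp120 (SD, n = 5 each), a log2 fold change of 0.32 (SE 0.12, edgeR adjusted p = 0.143). Mcm6 gave 211, 214, 211, 184 and 158 CPM in anti-MerTK libraries 1 to 5, against 189, 176, 155, 133 and 135 CPM in anti-gp120 libraries 1 to 5. Each anti-MerTK value of Mcm6 exceeded the control mean, and 3 exceeded the highest control (log2 fold change 0.31, SE 0.12, edgeR adjusted p = 0.151). Mcm3 ranged over 127 to 188 CPM after anti-MerTK and 119.6 to 165 CPM after anti-gp120 (log2 fold change 0.25, SE 0.12). Mcm4 had the smallest estimate of the set, 0.079 (SE 0.11), and ranged over 79.3 to 109 CPM after anti-MerTK and 76.4 to 105 CPM after anti-gp120. The remaining subunit of the ring, Mcm7, named here after its value was seen, averaged 54.2 ± 5.86 CPM after anti-MerTK and 48.4 ± 6.94 CPM after anti-gp120 (SD, n = 5 each), a log2 fold change of 0.17 (SE 0.11, edgeR adjusted p = 0.393). In all 5 listed subunits anti-MerTK library 5 was the lowest of its group.

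Pcna, the clamp that tethers DNA polymerases to the template (GRCm38 chromosome 2, 132249286 to 132253180), gave 35.6, 36.8, 34.8, 33.7 and 31.7 CPM in anti-MerTK libraries 1 to 5, against 32.3, 30.8, 27.1, 26.3 and 29.6 CPM in anti-gp120 libraries 1 to 5. Every anti-MerTK library was above the control mean and 4 were above the highest control, with only library 5 below control 1. Pcna averaged 34.5 ± 1.94 CPM after anti-MerTK and 29.2 ± 2.50 CPM after anti-gp120 (SD, n = 5 each), a log2 fold change of 0.24 with the smallest SE of the 34 genes (0.073), an unadjusted p of 0.00628 and an edgeR adjusted p of 0.0929. E2f1, the factor that turns on genes of S phase entry, gave 75.3, 73.7, 70.7, 63.7 and 57.5 CPM in anti-MerTK libraries 1 to 5, against 63.5, 57.9, 61.5, 55.7 and 58.02 CPM in anti-gp120 libraries 1 to 5. Libraries 1 to 4 lay above every control and library 5 within the control range (log2 fold change 0.20, SE 0.079, unadjusted p = 0.0252, edgeR adjusted p = 0.171).

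The 3 genes of nucleotide supply had negative estimates, and none passed the test. Rrm1 and Rrm2 encode the subunits of ribonucleotide reductase, which makes deoxynucleotides, and Tyms encodes thymidylate synthase. Rrm1 gave 180.4, 143, 147, 137 and 147 CPM in anti-MerTK libraries 1 to 5, against 183, 183, 157, 138 and 131 CPM in anti-gp120 libraries 1 to 5, and Rrm2 gave 72.5, 50.7, 54.9, 52.3 and 50.2 CPM after anti-MerTK and 76.1, 78.8, 63.9, 54.4 and 51.97 CPM after anti-gp120. In both, anti-MerTK library 1 stood apart from libraries 2 to 5 and controls 1 and 2 were the highest of their group. The log2 fold changes were -0.070 for Rrm1, -0.21 for Rrm2 and -0.040 for Tyms (SE 0.11, 0.14 and 0.13), with edgeR adjusted p between 0.404 and 0.890. The estimate of Tyms was above 0 without anti-MerTK replicate 2 (0.021), anti-gp120 replicate 1 (0.033) or anti-gp120 replicate 2 (0.0023).

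None of the other replication genes passed the test. Hells, a chromatin remodeller of the SNF2 family needed for DNA methylation, ranged over 17.3 to 21.9 CPM after anti-MerTK and 13.7 to 20.2 CPM after anti-gp120 (log2 fold change 0.21, SE 0.11, edgeR adjusted p = 0.279). All 5 anti-MerTK values of Hells lay above the control mean. Uhrf1, which brings the maintenance methyltransferase to copied DNA, had a log2 fold change of 0.17 (SE 0.14). Ccne1 and Ccne2, the E-type cyclins that drive cells into S phase with Cdk2, had log2 fold changes of 0.12 and -0.0049 (SE 0.16 and 0.15). Ccne1 ranged over 21.01 to 29.6 CPM after anti-MerTK and 15.7 to 30.8 CPM after anti-gp120, the anti-MerTK range lying inside that of the controls.

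Each library was also set against the genes' own means over the 10 libraries. The median deviation of the 20 mitosis genes, in log2 CPM, was 0.21, -0.30, -0.25, -0.17 and 0.089 in anti-MerTK libraries 1 to 5 and 0.31, 0.27, -0.011, -0.17 and 0.016 in anti-gp120 libraries 1 to 5. Anti-gp120 library 1 held the highest value of 9 mitosis genes, anti-gp120 library 2 of 5 and anti-MerTK library 1 of 5. Anti-MerTK library 2 and anti-gp120 library 4 each held the lowest value of 6, and anti-MerTK library 3 of 5. For the 14 replication genes the median deviation was 0.25, 0.16, 0.17, 0.047 and -0.14 in anti-MerTK libraries 1 to 5 and 0.17, 0.061, -0.10, -0.30 and -0.26 in anti-gp120 libraries 1 to 5. Anti-gp120 libraries 4 and 5 held the lowest value of 8 and 5 replication genes, and anti-MerTK library 5 was the lowest of its group for 10 of 14. Library 1 of either group was above the gene mean for 20 of 20 mitosis and 14 of 14 replication genes, and anti-gp120 library 4 for 4 of 20 and 0 of 14.

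**Figure D4:**
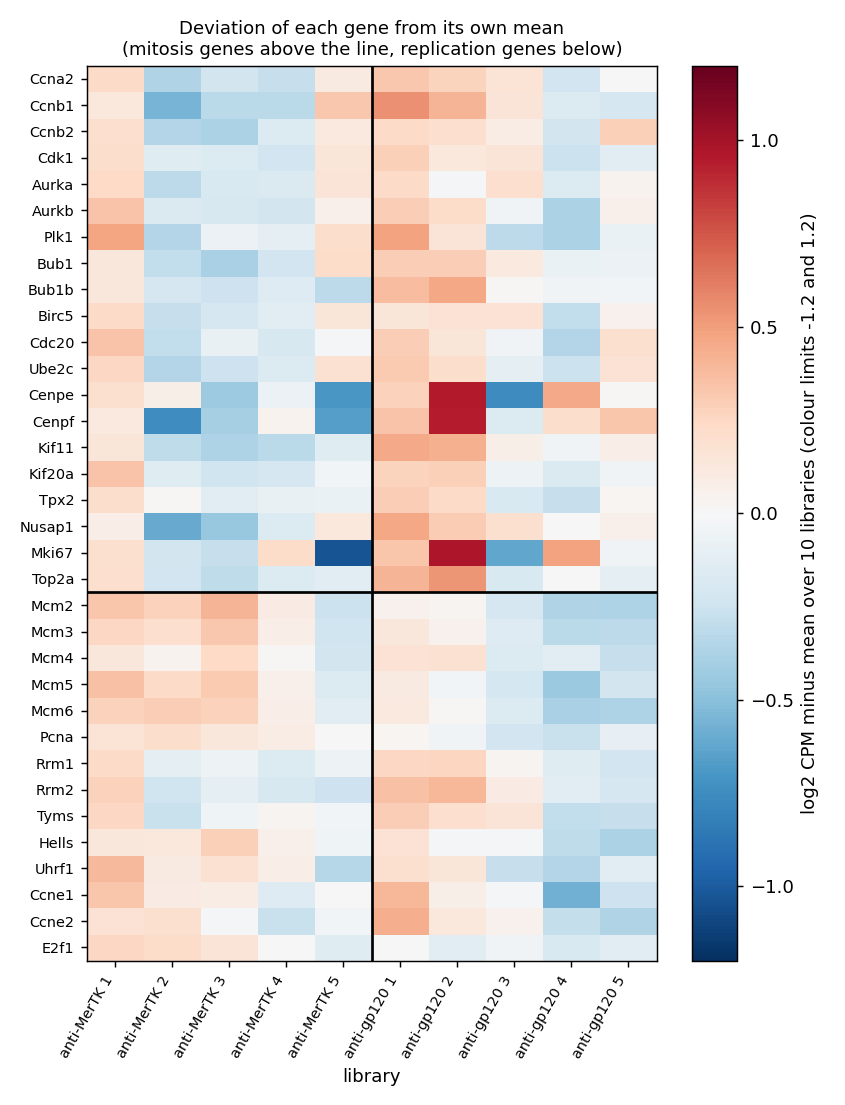
Log2 CPM of each of the 34 genes (rows) in each library (columns, anti-MerTK left of the line) minus the gene's mean over 10 libraries, as colour. Mitosis genes are mostly low in anti-MerTK libraries 2, 3 and 4, where the 5 helicase genes are above their means, and the helicase genes are below their means in anti-MerTK library 5.

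The classes were then compared within each library. The median deviation of replication genes minus that of mitosis genes was 0.042, 0.46, 0.42, 0.21 and -0.23 in anti-MerTK libraries 1 to 5, against -0.13, -0.21, -0.090, -0.13 and -0.28 in anti-gp120 libraries 1 to 5. In 4 of 5 anti-MerTK libraries this difference was above that of every control library, and in anti-MerTK library 5 it lay within the control range. Scaling of a library cancels in this difference. The classes were chosen with results of these data known, so it is a description with no test. Genes of the same stages that are not members, 44 of mitosis and 58 of replication, gave differences of 0.0096, 0.31, 0.36, 0.13 and -0.092 in anti-MerTK libraries 1 to 5, against -0.14, -0.27, -0.024, -0.14 and -0.19 in anti-gp120 libraries 1 to 5. Here anti-MerTK libraries 1 to 4 again stood above every control, and library 5 did not. These genes were measured in the same libraries, so they are no independent sample. Summed monocyte markers were also higher in each anti-MerTK library, at 272 to 432 CPM after anti-MerTK, than in any control, at 122 to 267 CPM after anti-gp120. Their part in the class difference was not tested.

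**Figure D5:**
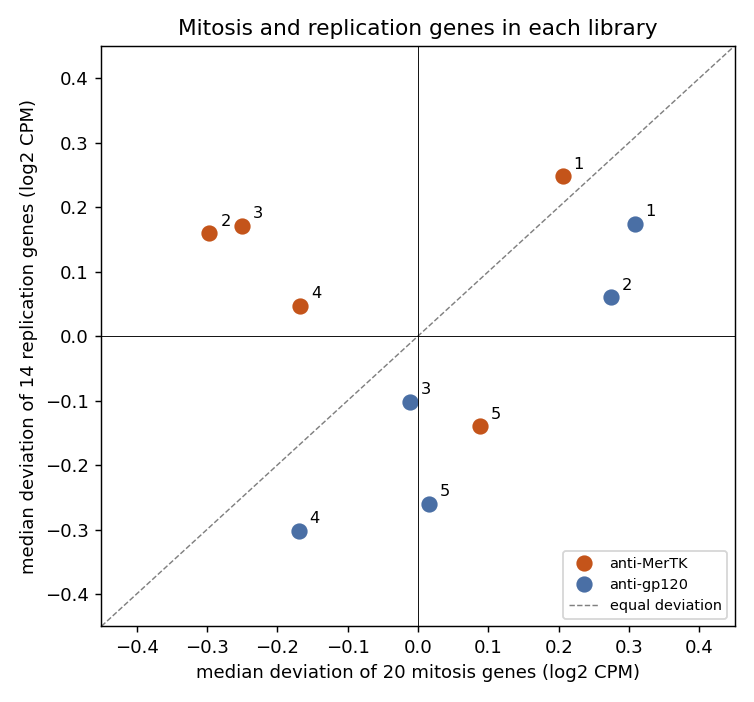
Median deviation from the gene mean (log2 CPM) of the 20 mitosis genes (x axis) and of the 14 replication genes (y axis) in each of 10 libraries, numbered by replicate. The anti-MerTK libraries 1 to 4 lie above the line of equal deviation, and anti-MerTK library 5 and all 5 anti-gp120 libraries lie below it.

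Of 44 other genes of mitosis, 1 was higher, 0 were lower and 41 had a negative estimate. Of all genes, 1.85% were higher, 1.38% lower and 51.0% had a negative estimate. The 1 was Pttg1, securin, the inhibitor of the protease that opens the cohesin ring. Pttg1 gave 44.7, 59.8, 52.1, 52.8 and 45.8 CPM in anti-MerTK libraries 1 to 5, against 31.3, 27.02, 40.1, 30.1 and 36.2 CPM in anti-gp120 libraries 1 to 5, with all 5 above every control (log2 fold change 0.63, SE 0.11, edgeR adjusted p = 0.0169). Without anti-gp120 replicate 4 its adjusted p was 0.0593. Espl1, separase, the protease that securin holds back, had a negative estimate and did not pass. It gave 47.2, 43.2, 52.8, 49.3 and 54.9 CPM after anti-MerTK and 59.4, 73.1, 55.1, 67.05 and 60.03 CPM after anti-gp120, all 5 below every control (log2 fold change -0.35, SE 0.089, edgeR adjusted p = 0.0551). Its adjusted p was 0.0119 with DESeq2, 0.0206 with limma-voom, 0.0209 with a surrogate variable, 0.0344 without anti-MerTK replicate 5 and 0.0487 without anti-gp120 replicate 3, each under the threshold. It also passed, narrowly, without the filter on low counts. Groups did not overlap for 2 of the 44 genes, against 5.97% of all genes, so such separation was no more frequent here. The median log2 fold change of the 44 was -0.17.

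Of 58 other genes of replication, 1 was higher, 0 were lower and 43 had a positive estimate, with a median log2 fold change of 0.091. Of all genes, 3.22% passed and 49.0% had a positive estimate, so the share called here was not above that of all genes. The 1 was Timeless, which shields stalled forks, at 17.7 ± 4.23 CPM after anti-MerTK and 9.43 ± 2.32 CPM after anti-gp120 (SD, n = 5 each), a log2 fold change of 0.91 (SE 0.20, edgeR adjusted p = 0.0362). It passed without anti-MerTK replicate 5 or anti-gp120 replicate 1, and its adjusted p was 0.0568 to 0.102 without any other single library and 0.0548 without the filter. Cdt1, which loads the MCM helicase on origins, gave 69.2, 79.04, 62.3, 54.2 and 49.6 CPM after anti-MerTK and 53.9, 50.6, 35.98, 41.3 and 46.8 CPM after anti-gp120. Anti-MerTK libraries 1 to 4 were above every control for Cdt1, as for Mcm2 (log2 fold change 0.46, SE 0.14, edgeR adjusted p = 0.0928). Cdt1 passed with DESeq2 (adjusted p = 0.0231), with limma-voom (0.0490) and without anti-MerTK replicate 5 (0.0405).

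Among 30 regulators of entry into the cycle, 0 were higher and 2 were lower, with a median log2 fold change of 0.028. Of all genes, 1.85% were higher and 1.38% lower. Tfdp2, a DNA-binding partner of E2F factors, averaged 6.44 ± 1.06 CPM after anti-MerTK and 10.1 ± 1.47 CPM after anti-gp120 (SD, n = 5 each), a log2 fold change of -0.65 (SE 0.14, edgeR adjusted p = 0.0275). Rbl2, the pocket protein p130 that holds the genes of both classes silent in resting cells, averaged 40.8 ± 2.98 CPM after anti-MerTK and 54.5 ± 7.63 CPM after anti-gp120 (SD, n = 5 each), a log2 fold change of -0.42 (SE 0.095, edgeR adjusted p = 0.0376). Both were lower in all 5 anti-MerTK libraries than in any control. Such groups without overlap were found for 3 of the 30 genes, against 5.97% of all genes. Tfdp2 missed the threshold without anti-MerTK replicates 1, 2 or 3 or anti-gp120 replicates 2 or 4 (adjusted p 0.0510 to 0.0798), and Rbl2 without anti-MerTK replicates 1, 2, 3 or 4 or anti-gp120 replicates 2, 3 or 4 (adjusted p 0.0554 to 0.0947).

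Among 20 checkpoint genes and p53 targets, 1 was higher and 2 were lower, with a median log2 fold change of 0.11. By the same test 1.85% of all genes were higher and 1.38% lower. Groups did not overlap for 3 of the 20 genes, against 5.97% of all genes. Chek2, a kinase of the DNA damage checkpoint, gave 21.6, 18.5, 19.2, 20.5 and 20.3 CPM in anti-MerTK libraries 1 to 5, against 24.6, 28.3, 30.6, 26.9 and 26.3 CPM in anti-gp120 libraries 1 to 5. All 5 anti-MerTK libraries lay below every control (log2 fold change -0.45, SE 0.074, edgeR adjusted p = 0.0117). Chek2 passed with each single library left out (adjusted p 0.0131 to 0.0440). Atr, the kinase that answers stalled replication, named after its value was seen, averaged 13.1 ± 0.624 CPM after anti-MerTK and 17.4 ± 2.13 CPM after anti-gp120 (SD, n = 5 each), a log2 fold change of -0.41 (edgeR adjusted p = 0.0327). Atr missed the threshold without anti-MerTK replicates 1, 2, 3 or 4 or anti-gp120 replicates 2 or 4 (adjusted p 0.0554 to 0.0950). Plk2, a relative of Plk1 induced by p53 and by stress, averaged 87.2 ± 14.9 CPM after anti-MerTK and 58.2 ± 6.70 CPM after anti-gp120 (SD, n = 5 each), a log2 fold change of 0.58 (SE 0.12, edgeR adjusted p = 0.0232). Plk2 missed the threshold without anti-MerTK replicates 1 or 3 or anti-gp120 replicates 2 or 4 (adjusted p 0.0584 to 0.0719).

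The libraries held 33159858 to 46108687 counted reads. Mertk averaged 78.9 ± 4.96 CPM after anti-MerTK and 91.1 ± 14.3 CPM after anti-gp120 (SD, n = 5 each), a log2 fold change of -0.21 (edgeR adjusted p = 0.263), and the antibody binds the protein, so this does not measure blocking. Single libraries weighed on the 438 calls, which numbered 113, 154, 124 and 243 without anti-MerTK replicates 1, 2, 3 and 4, and 131 and 70 without anti-gp120 replicates 2 and 4. Markers of macrophages (10 genes, 1 higher, against 1.85% of all genes) summed to 31114 to 37145 CPM after anti-MerTK and 28859.96 to 38783 CPM after anti-gp120. Of the 10, 5 had a positive and 5 a negative estimate, and groups did not overlap for 2, against 5.97% of all genes. Those 2, named after their values were seen, were Fcgr1 and Cd68. Fcgr1 ranged over 1058 to 1586 CPM after anti-MerTK and 624 to 887 CPM after anti-gp120. Cd68 ranged over 928 to 1082 CPM after anti-MerTK and 831 to 903 CPM after anti-gp120. Of the 8 monocyte markers, 7 were tested and 1 was higher, against 1.85% of all genes. The monocyte sum was mostly Ccr2, which did not pass (edgeR adjusted p = 0.165) and whose groups overlapped. Groups did not overlap for 1 gene of this list, Plac8, named after its values were seen, against 5.97% of all genes. Plac8 ranged over 34.4 to 109.7 CPM after anti-MerTK and 5.77 to 32.7 CPM after anti-gp120. Of the 8 epithelial and tumour markers, only Cdh1 passed the filter on low counts and was tested. It was lower (edgeR adjusted p = 0.0244), as were 1.38% of all genes. Krt20 and Cldn4 had no read in any library, and Epcam reached at most 0.111 CPM after anti-MerTK and 0.123 CPM after anti-gp120. The sum of 25.8 to 34.2 CPM after anti-MerTK and 35.98 to 59.9 CPM after anti-gp120 was nearly all Cdh1. Fibroblast markers (8 genes) summed to 6.51 to 43.2 CPM after anti-MerTK and 7.75 to 31.8 CPM after anti-gp120, with the maximum in anti-MerTK library 5, and T cell markers (7 genes) to 2.65 to 10.3 CPM after anti-MerTK and 7.31 to 13.3 CPM after anti-gp120. B cell markers (6 genes) gave 17.6 to 30.6 CPM after anti-MerTK and 19.8 to 40.2 CPM after anti-gp120, and NK cell markers (7 genes) gave 0.401 to 1.07 CPM after anti-MerTK and 0.153 to 1.76 CPM after anti-gp120. Sums for neutrophils (8 genes) were 73.9 to 92.2 CPM after anti-MerTK and 64.5 to 106 CPM after anti-gp120, and for dendritic cells (8 genes) 52.5 to 95.9 CPM after anti-MerTK and 29.1 to 71.6 CPM after anti-gp120. Endothelial markers (7 genes) stood at 72.6 to 121 CPM after anti-MerTK and 85.1 to 134 CPM after anti-gp120. The group ranges overlapped for each of these sums but those of monocyte and of epithelial and tumour markers. The part of these cells in the class difference was not tested. In bulk RNA, a different share of cycling cells and a different number of such transcripts per cell cannot be told apart.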

How the data were processed

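Polyadenylated RNA of purified tumour-associated macrophages was sequenced, 5 libraries per antibody. The authors aligned reads with GSNAP to GRCm38, per the submitters' processing notes; no aligner version, annotation release or strand setting is given in those sources. The deposited counts hold uniquely aligned reads by gene, per the file headers, so near-identical copies can lose reads. The deposited RPKM values carry the authors' library size factors, per the file headers, and serve here for levels between genes and to recover those factors. Of 36528 Entrez identifiers, 31049 were named from RefSeq's GRCm38.p6 table, and the unnamed held 2.14% to 2.66% of counts. Replicates were numbered by order of deposition and pair nothing. No 2 libraries agreed within sampling noise (smallest chi-square per degree of freedom 29.0).

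The 13588 genes kept by filterByExpr were tested in R 4.3.3 by the quasi-likelihood method of edgeR 4.0.16 (limma 3.58.1 beneath it), with TMM scaling, robust dispersions and Benjamini-Hochberg adjustment over all of them at 0.05. All p-values are two-sided. SE is the log2 fold change over the square root of F, and approximate. Deviations use log2 CPM with a prior count of 2. Figures and tables used Python 3.11.15, numpy 2.4.6, pandas 2.3.3 and matplotlib 3.10.9. The fit was tested on simulated data whose changes were larger than the median estimate of either class. That test does not show how often changes as small as those medians would be called. Genes were named by rule: all members, Mertk, the 2 of smallest p in each of 4 pathway lists, and the most abundant gene of each of 10 marker lists, given only where a result touches it. The members and lists were chosen with earlier results of these data known. Alternatives were RLE, upper quartile and the authors' size factors, no filter, a minimum of 5 CPM in 5 libraries, DESeq2 1.42.0, limma-voom with quality weights, 1 surrogate variable (sva 3.50.0), each library left out, and thresholds of 0.01 and 0.1. A fit on 8 libraries was added after seeing the data.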

Additional observations from a re-analysis of the deposited data

Results flagged for a closer look

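In 4 of 106 sets of 5 libraries (a gene in a group) 1 library stood far from the other 4, by Dixon's criterion on the gap relative to the range. Chance gives about 1 in 20. Rrm1 and Rrm2 were at 180.4 and 72.5 CPM in anti-MerTK library 1, where libraries 2 to 5 spanned 137 to 147 and 50.2 to 54.9 CPM. Birc5 was at 37.9 CPM in anti-gp120 library 4, below the 48.5 to 52.8 CPM of the other 4 controls. Mertk was at 70.5 CPM in anti-MerTK library 3, below the 79.4 to 82.7 CPM of the others of its group.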

How the results depend on the processing

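The medians kept their signs in every alternative run, at -0.29 to -0.15 for mitosis genes and 0.12 to 0.25 for replication genes with single libraries left out, and -0.20 and 0.24 in 8 libraries. Of the comparisons of a member with an alternative, 621 of 644 kept direction and side of the threshold, 5 passed the threshold and 18 changed sign, in Plk1, Tpx2, Tyms and Ccne2, whose estimates lie near 0. Ccne2 was at 0.012 with a surrogate variable, 0.015 with limma-voom, 0.0071 with upper quartile scaling and -0.087 to 0.12 with single libraries left out. Tyms was at 0.036 with limma-voom and 0.047 in 8 libraries, and -0.11 to 0.033 with single libraries left out. Plk1 ranged over -0.078 to 0.20, Tpx2 over -0.11 to 0.024 and Csf3r, a neutrophil marker, over -0.20 to 0.0092 with single libraries left out.

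Genes changed numbered 1152 with DESeq2, 1007 with limma-voom, 204 in 8 libraries, 15 at 0.01, 1017 at 0.1 and 70 to 654 with single libraries left out. Mitosis members called numbered 2 with DESeq2, 1 at 0.1 and 0 with any library left out. Replication members called numbered 1 with DESeq2, limma-voom or 0.1, and 0 to 1 with libraries left out. Other mitosis genes called, 1 as reported, numbered 4 with DESeq2, 3 with limma-voom, 2 with a surrogate variable or no filter, 0 at 0.01, 4 at 0.1 and 0 to 2 with libraries left out. Other replication genes called, 1 as reported, numbered 4 with DESeq2 or limma-voom, 0 without the filter, 0 at 0.01, 2 at 0.1 and 0 to 4 with libraries left out. Entry regulators called, 2 as reported, numbered 4 with DESeq2, limma-voom, a surrogate variable or 0.1, 0 at 0.01 and 0 to 4 with libraries left out. Checkpoint genes called, 3 as reported, numbered 0 at 0.01 and 1 to 3 with libraries left out. In 8 libraries, a set chosen after seeing the data, Tfdp2, Rbl2, Cdh1 and Atr missed the threshold (adjusted p 0.0849, 0.123, 0.0930 and 0.128). At a minimum of 5 CPM, 18 of 20 mitosis genes remained. The cause of these differences was not tested, beyond stricter or looser thresholds. No paired analysis was possible because the labels carry no replicate numbers. Ccnb1, Cenpe and Cenpf had the fewest reads of the members, down to 86, 117 and 80 in a library. The largest SE was that of Mki67 (0.30), on 238 to 1122 reads.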

Other observations

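Genes upstream of the members, named after their values were seen, gave mixed values. Ccnd1, cyclin D1, which starts the passage out of G1, averaged 714 ± 260.1 CPM after anti-MerTK and 398 ± 43.4 CPM after anti-gp120 (SD, n = 5 each), a log2 fold change of 0.84 (SE 0.21, edgeR adjusted p = 0.0527). Its adjusted p was 0.00104 with DESeq2, 0.0205 with limma-voom, 0.0235 with a surrogate variable and 0.0424 at a minimum of 5 CPM. It also passed in 8 libraries (adjusted p = 0.00744) and without anti-MerTK replicate 5 (0.0109). Cdkn1a, the inhibitor p21, averaged 475 ± 42.99 CPM after anti-MerTK and 435 ± 56.7 CPM after anti-gp120 (SD, n = 5 each), a log2 fold change of 0.12 (edgeR adjusted p = 0.495). Myc, a growth-promoting factor, averaged 33.7 ± 5.58 CPM after anti-MerTK and 38.6 ± 7.94 CPM after anti-gp120 (SD, n = 5 each), a log2 fold change of -0.19 (edgeR adjusted p = 0.475).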
